A study of Mus musculus with 23 samples.

Results

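Hippocampal RNA from mice that had gone through chronic social defeat was compared between libraries labelled as knockout of Nrsn2 and wild-type (WT) libraries. The comparison holds 10 of the 23 libraries of the series, 5 labelled knockout and 5 WT, chosen by genotype and treatment label and by table columns naming defeated libraries. Defeat consisted of 10 daily sessions of 5 min in the cage of a new aggressive CD-1 mouse, with the pair kept on either side of a perforated divider for the rest of each 24 h. Another 10 libraries, 5 labelled knockout and 5 WT, came from animals that were not defeated, and 3 libraries whose title and treatment field disagree entered only alternative settings. The labels give the genotype as WT or Nrsn2-KO and the tissue as hippocampi. The deleted part of Nrsn2, the background strain and the age of the animals are not given in the labels. Libraries of 1 group are told apart by a number alone, and the labels do not say that each number is its own animal. The p-values therefore reflect how much these libraries varied, which may be technical.

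Neurensins are small membrane proteins of neurons that sit on vesicles and are known from work on neurite growth. Nrsn2 encodes neurensin 2 and Nrsn1 its paralog neurensin 1. Chronic social defeat is a widely used model of stress-related behaviour in rodents, and the hippocampus is a brain region that takes part in memory and in the control of the stress hormone axis.

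Estimated depth was 37.03 to 52.74 M reads per defeated library, median 44.49 M, and was 37.03 to 50.36 M for the knockout label against 37.77 to 52.74 M for WT. Hippocampal markers were present in every defeated library. Neurod6, of pyramidal neurons, stood at 64.5 to 76.8 RPKM (reads scaled by gene length and library depth) and Prox1, of the dentate gyrus, at 11.0 to 13.7 RPKM. On the first principal component, with 30.6% of the variance, all 5 libraries labelled knockout were negative and all 5 WT libraries positive. Libraries 1 and 2 of the knockout label stood apart in choroid plexus genes, and WT library 3 in haemoglobin genes, as given with those genes.

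The targeted gene was examined first. Nrsn2 (ENSMUSG00000059361, mm10 chromosome 2, 152368755 to 152376638) was measured at 33.7, 37.4, 35.5, 32.0 and 32.0 RPKM in defeated libraries 1 to 5 of the knockout label and at 31.6, 28.4, 28.1, 27.3 and 33.3 RPKM in the WT libraries. Every library of the knockout label thus held Nrsn2 reads at about the WT level, and the groups overlapped. The mean was 34.1 ± 2.34 RPKM against 29.7 ± 2.55 RPKM (SD, n = 5 each), 1.15 times the WT mean (exact two-sided permutation test, p = 0.031746, where the smallest possible p is 0.00793651). That p rose above 0.05 on leaving out knockout-label library 1, 2 or 3 or WT library 2, 3 or 4, to at most 0.0635. The test across all genes did not call it (log2 difference 0.20 ± 0.06 SE, limma adjusted p = 0.123). RPKM per gene does not show which exons the reads came from, so a deletion of part of the transcript is not visible in these values. Because the level was not lower, the libraries are referred to as labelled knockout throughout.

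Nrsn1 (chromosome 13) was lower. Its levels were 76.4, 80.8, 77.2, 80.4 and 72.7 RPKM with the knockout label and 92.3, 83.0, 90.1, 86.6 and 90.0 RPKM in WT. The groups did not overlap, and the log2 difference was -0.19 ± 0.04 (SE, limma adjusted p = 0.0275). Over 23 alternative settings its adjusted p ranged from 0.0178 to 0.103, and the call was lost in 10 of them, including the removal of knockout-label library 1, 3 or 5 or of WT library 1, 3, 4 or 5. Of the 154 tested genes that start within 5 Mb of Nrsn2, 1 was called, where 1.91% of all genes tested were called. It was the adipocyte membrane protein gene Apmap, at a log2 difference of -0.15. Among undefeated libraries 6 of these 154 genes were called, where 1.14% of all genes tested were called.

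Across the genome the genotype labels differed in a small share of genes, mostly by small amounts. Of 18225 genes tested as log2(RPKM + 0.5), 349 passed limma's adjusted p of 0.05 and are referred to as called, a share of 1.91%. With the knockout label, 200 were higher (1.1%) and 149 lower (0.818%). The median absolute log2 difference of the called genes was 0.25, with 24 genes at least 2-fold higher and 5 at least 2-fold lower. The genes called higher include near-identical copies at 1 locus of chromosome 4, many of them at least 2-fold higher, which do not count as separate observations. The window from 40 to 50 Mb around this locus held 27 of the 200. Of the called genes, 342 showed no overlap between the groups, as did 5.49% of all genes tested. Gene models that are clones, predicted genes or pseudogenes made up 73 of the called genes, and 18 had no symbol. The count fell to 210, 220 and 219 without knockout-label library 1, 2 or 4, to 228, 205 and 231 without WT library 1, 4 or 5, and to 127 without knockout-label libraries 1 and 2 together.

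**Figure D1:**
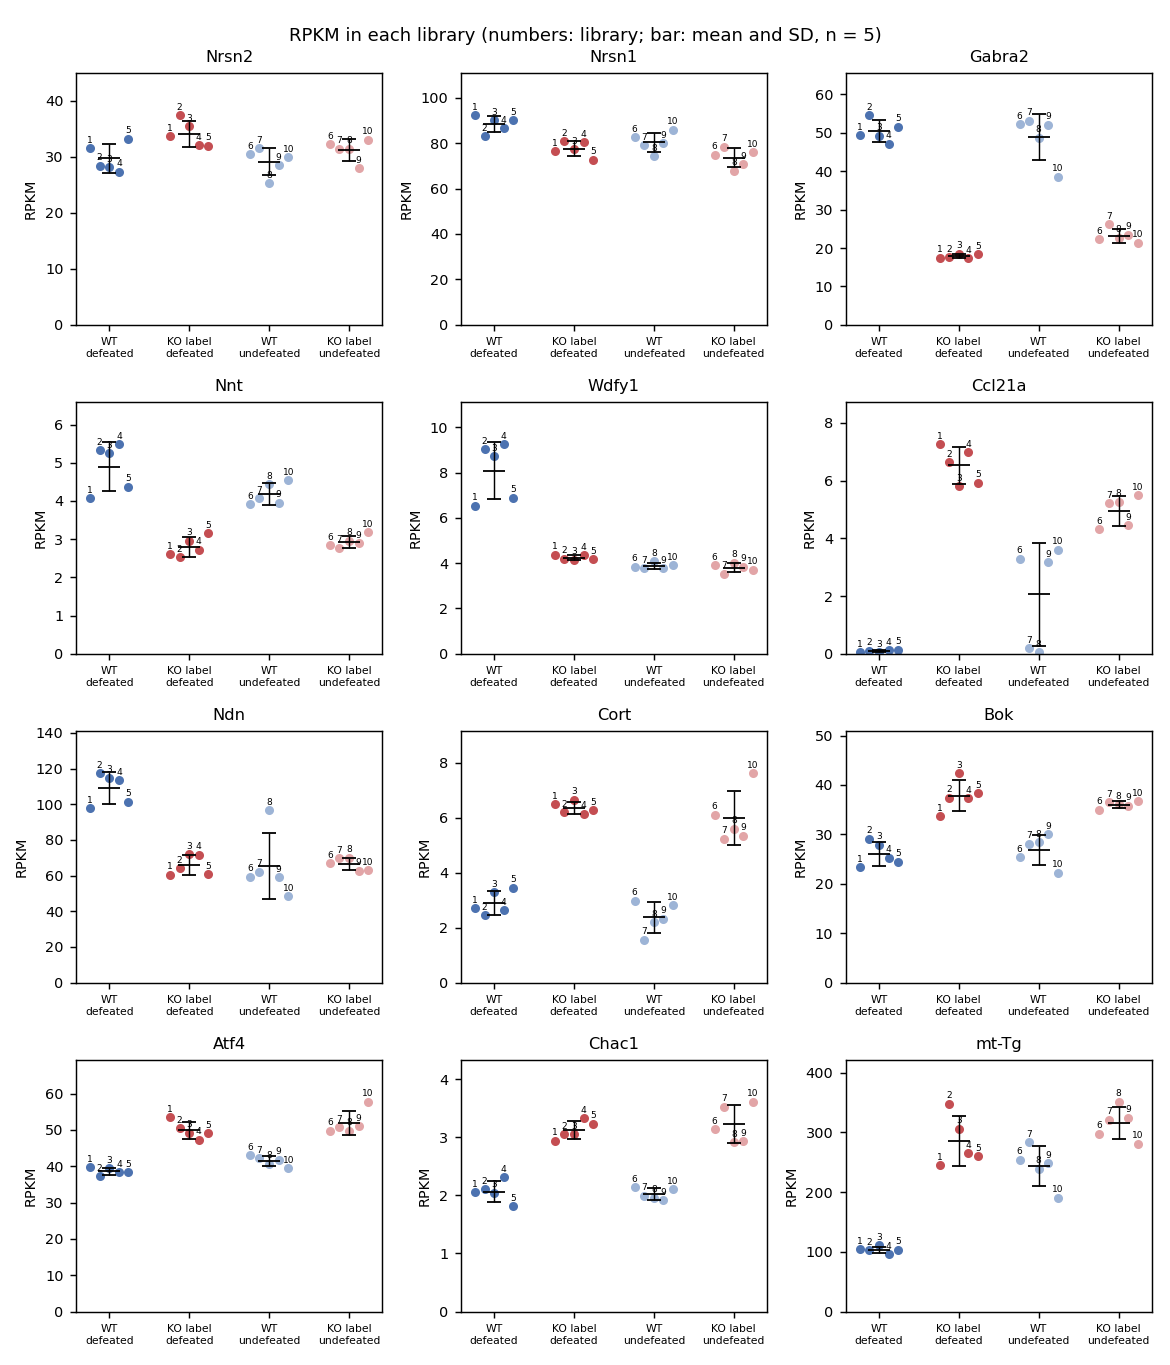
RPKM of 12 genes in each library, with defeated WT and knockout-label libraries on the left of each panel and undefeated ones on the right; numbers name the library, and bars give the mean and SD (n = 5). Gabra2, Nnt, Cort, Bok, Atf4 and Chac1 separate the genotype labels in both conditions, while Wdfy1 and mt-Tg stand apart in defeated WT libraries.

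Several genes of the ATF4 pathway were higher with the knockout label. ATF4 is a transcription factor that is translated when amino acids run short or protein folding is disturbed, and it raises genes for amino acid synthesis, transport and redox balance. Of 19 tested genes of this list, 5 were called (26.3%), all higher, and 16 had a positive log2 difference. Over all genes tested, 1.91% were called and 1.1% called higher. The list's median log2 difference was 0.10, beside 0.00368 over all genes tested. Among undefeated libraries, 4 of its 18 tested genes were called higher, with a median of 0.14, where 1.14% of all genes were called and 0.809% called higher.

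Atf4 itself stood at 53.4, 50.5, 49.3, 47.3 and 49.1 RPKM with the knockout label and at 39.7, 37.3, 39.5, 38.4 and 38.4 RPKM in WT. The lowest knockout-label library lay above the highest WT library, at a log2 difference of 0.36 ± 0.03 (SE, limma adjusted p = 0.000122). Chac1, whose product degrades glutathione, was at 2.94, 3.05, 3.05, 3.33 and 3.23 RPKM against 2.06, 2.11, 2.04, 2.31 and 1.81 RPKM. Its groups did not overlap either (log2 difference 0.50 ± 0.05 SE, limma adjusted p = 0.000665), and the knockout-label mean was 1.51 times the WT mean. Asns, the enzyme that makes asparagine, was at 32.5, 29.6, 27.4, 30.4 and 30.5 RPKM against 23.9, 24.4, 23.8, 25.5 and 24.1 RPKM (log2 difference 0.30 ± 0.04 SE, limma adjusted p = 0.00389). Mthfd2, of mitochondrial folate metabolism, ranged from 2.21 to 2.86 RPKM against 1.68 to 1.92 RPKM, at a log2 difference of 0.39. Sesn2, a sensor of leucine supply, ranged from 4.08 to 4.55 RPKM against 3.51 to 3.84 RPKM, at a log2 difference of 0.17. Its limma adjusted p of 0.0483 was close to the threshold, and undefeated libraries gave a log2 difference of 0.07 (limma adjusted p = 0.568). In all 5 genes the knockout-label libraries lay above every WT library.

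Members for serine synthesis and amino acid transport were not called. Phgdh had a log2 difference of 0.03, Psat1 of 0.08 and Psph of 0.10, and all 3 are enzymes that make serine. The transporter gene Slc7a3 was at 0.29 (limma adjusted p = 0.0789) and Slc7a11, which imports cystine, at -0.18 (limma adjusted p = 0.0863). Trib3 stayed under the minimum level for the test, at 0.18 to 0.29 RPKM with the knockout label and 0.11 to 0.16 RPKM in WT. The calls of Atf4, Asns and Chac1 held in all 23 alternatives run. Leaving out knockout-label libraries 1 and 2 together gave 3 calls higher in the list and ended the call of Mthfd2. Single libraries left out gave 4 or 5 calls higher, and 4 without any 1 library other than knockout-label library 4. Atf4, Asns, Chac1 and Mthfd2 kept their calls in each single removal, so the call lost there was that of Sesn2.

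The promoters of 3 of the called genes are given here as the letters around their start sites. Binding of ATF4 to these stretches was not tested. They are RefSeq sequences in GRCm38.p6, 5′ to 3′ along the gene's strand, from 250 bases before to 50 bases after the start. Capitals mark a match to TGATGNAA, the core shared by C/EBP-ATF response elements, searched on both strands. The Asns window is chr6:7693160-7693459 on the minus strand, Chac1 is chr2:119350992-119351291 on the plus strand, and Mthfd2 is chr6:83317555-83317854 on the minus strand.
Asns: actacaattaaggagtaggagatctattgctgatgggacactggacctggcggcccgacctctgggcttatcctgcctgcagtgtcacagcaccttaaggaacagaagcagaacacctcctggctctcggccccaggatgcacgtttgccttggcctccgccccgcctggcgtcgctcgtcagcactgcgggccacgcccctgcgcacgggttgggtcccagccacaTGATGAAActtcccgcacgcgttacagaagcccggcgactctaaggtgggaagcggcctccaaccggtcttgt
Chac1: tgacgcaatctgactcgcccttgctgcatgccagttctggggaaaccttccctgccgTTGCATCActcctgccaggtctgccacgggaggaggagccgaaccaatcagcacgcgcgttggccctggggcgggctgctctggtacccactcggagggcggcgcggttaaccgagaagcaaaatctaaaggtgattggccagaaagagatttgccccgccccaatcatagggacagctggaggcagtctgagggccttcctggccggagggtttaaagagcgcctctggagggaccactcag
Mthfd2: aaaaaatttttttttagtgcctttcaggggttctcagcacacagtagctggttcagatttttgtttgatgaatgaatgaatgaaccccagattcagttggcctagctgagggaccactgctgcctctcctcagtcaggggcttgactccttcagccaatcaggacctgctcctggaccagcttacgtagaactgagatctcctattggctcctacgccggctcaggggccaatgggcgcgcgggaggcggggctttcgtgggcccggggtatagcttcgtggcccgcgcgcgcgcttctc

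The Asns match starts at base 228 of the window and reads along the gene, and the Chac1 match starts at base 58 and lies on the other strand. The Mthfd2 window holds no match to these letters. Of 18 list genes with a RefSeq promoter, 5 hold a match, 2 of the 5 called genes and 3 of the 13 others. Of all 32851 promoters of this length, 3.97% hold it, counted per promoter, whereas the list was counted per gene.

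Cytosolic aminoacyl-tRNA synthetases, the enzymes that load amino acids onto tRNA, were added as a list after their values were seen. Of 20 tested, 6 were called higher and 1 lower (35% called, beside 1.91% over all genes tested). Nars, for asparagine, was at 63.8 to 68.0 RPKM with the knockout label and 54.5 to 56.8 RPKM in WT (log2 difference 0.24, limma adjusted p = 0.000231). Cars for cysteine, Gars for glycine, Yars for tyrosine, Sars for serine and Aars for alanine were higher by log2 differences of 0.30, 0.17, 0.16, 0.16 and 0.10. Hars, for histidine, was lower at -0.15. In undefeated libraries 4 of the 20 were called higher and 1, again Hars, lower. The number called higher fell to 4 without any 1 of knockout-label libraries 1, 2 and 4 or WT libraries 1, 4 and 5.

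Several genes known to differ in level or structure between C57BL/6 substrains differed between the labels. As background, C57BL/6J carries a small intronic deletion in Gabra2 that lowers its transcript and a deletion within Nnt, whereas C57BL/6N does not. Of 7 tested genes of this list, 3 were called lower and 1 higher (57.1% called, beside 1.91% over all genes tested), while the median was -0.02. The substrain of each group is not in the labels, so substrain cannot be told apart from genotype or from defeat.

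Gabra2 (chromosome 5, 70957597 to 71095849), a subunit of GABA-A receptors, was measured at 17.4, 17.7, 18.5, 17.4 and 18.5 RPKM with the knockout label and at 49.4, 54.6, 49.2, 47.2 and 51.7 RPKM in WT. The knockout-label mean was 0.355 times the WT mean (log2 difference -1.47 ± 0.04 SE, limma adjusted p = 1.34e-09). Undefeated libraries showed the same order, with 21.4 to 26.2 RPKM against 38.6 to 53.1 RPKM (log2 difference -1.06, limma adjusted p = 0.00073).

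Nnt, a mitochondrial enzyme that makes NADPH, was at 2.61, 2.53, 2.96, 2.72 and 3.16 RPKM against 4.06, 5.32, 5.25, 5.49 and 4.37 RPKM. The groups did not overlap (log2 difference -0.71 ± 0.08 SE, limma adjusted p = 0.00143), and the undefeated log2 difference was -0.45 (limma adjusted p = 0.00444). Wdfy1, an adaptor of endosomes and of Toll-like receptor signalling, was at 4.37, 4.19, 4.16, 4.35 and 4.18 RPKM against 6.54, 9.04, 8.72, 9.26 and 6.89 RPKM. WT libraries 1 and 5 were the lower ones, and none overlapped the knockout label (log2 difference -0.84 ± 0.09 SE, limma adjusted p = 0.000528). Undefeated levels were alike, at 3.53 to 4.02 RPKM with the knockout label and 3.78 to 4.10 RPKM in WT, and the change of the genotype difference with defeat was called (limma adjusted p = 0.000528 over 18263 genes, of which 0.148% were called).

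Entpd4, a nucleotide-hydrolysing enzyme of the Golgi, was higher at 18.5, 17.4, 17.9, 13.4 and 17.4 RPKM against 8.40, 12.3, 8.57, 13.5 and 8.69 RPKM. Here the groups overlapped, since WT library 4 lay above knockout-label library 4. Its log2 difference was 0.71 ± 0.14 (SE, limma adjusted p = 0.0316), and the limma adjusted p reached 0.166 over the alternatives. The call ended on leaving out knockout-label library 1, 2, 3 or 5 or WT library 1, 3 or 5. Entpd4 has near-identical copies next to it, so its reads may be split among them. The members Cyfip2, Ide and Herc2 were not called, at log2 differences of -0.02, 0.33 and 0.07.

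The greatest difference by size came from a cluster of near-identical genes on chromosome 4. Ccl21a and Ccl21b encode copies of a chemokine that guides lymphocytes and dendritic cells. Ccl21a (42772860 to 42773993) was at 7.26, 6.64, 5.80, 6.99 and 5.93 RPKM with the knockout label and at 0.0609, 0.103, 0.0437, 0.131 and 0.143 RPKM in WT. The WT values lie near 0, so no fold is given, and the log2 difference of 3.56 ± 0.07 (SE, limma adjusted p = 1.85e-10) depends on the 0.5 added before the logarithm. Ccl21b was at 15.3, 13.3, 11.6, 13.7 and 10.9 RPKM against 0.0659, 0.0557, 0.0473, 0.0471 and 0.434 RPKM, at a log2 difference of 4.44 ± 0.15 (SE, limma adjusted p = 1.83e-08).

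The undefeated WT libraries were split at this locus. Ccl21a in undefeated WT libraries ranged from 0.0467 to 3.60 RPKM, while the undefeated knockout-label libraries held 4.32 to 5.50 RPKM. The window from 40 to 50 Mb of chromosome 4 held 28 called genes among 170 tested (16.5%, beside 1.91% over all genes tested), 27 of them higher. Most of them are predicted genes without a function given. Fam205a1, Fam205a2, Fam205a3 and Fam205a4 lie within it, at log2 differences of 0.67, 0.81, 0.81 and 0.80 (limma adjusted p from 0.000106 to 0.000456). Reads from such copies cannot be placed with certainty, so these genes do not count as separate observations.

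**Figure D2:**
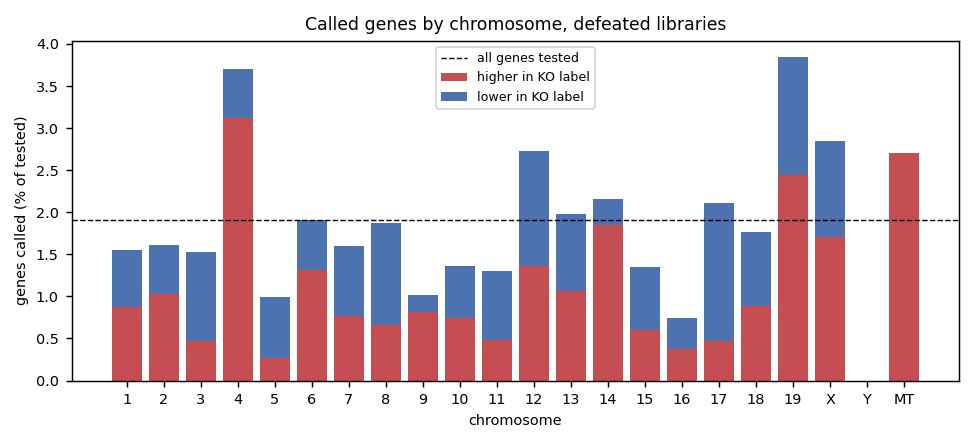
Share of tested genes called on each chromosome in the defeated libraries, split into genes higher (red) and lower (blue) with the knockout label; the dashed line is the 1.91% over all genes. Chromosome 19 reached 3.85% and chromosome 4 reached 3.70%, where the window from 40 to 50 Mb held 28 of the 45 called genes.

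Other called genes also lay close together. On chromosome 17, the first 10 Mb held 9 called genes among 53 (17.0%), 8 of them lower, where 1.91% of all genes tested were called. The 8 lower ones are copies of the Tmem181 and Dynlt1 genes and the pseudogene Pisd-ps2, so they do not count as separate observations. Tmem181a, a membrane protein gene with near-identical copies there, was at 37.6, 38.4, 36.2, 38.9 and 37.7 RPKM against 56.2, 58.5, 58.2, 60.5 and 57.9 RPKM. Its groups lay far apart (log2 difference -0.62 ± 0.03 SE, limma adjusted p = 1.11e-07), as they did undefeated (log2 difference -0.59, limma adjusted p = 0.000852). Between 10 and 30 Mb of chromosome 12, 5 of 30 and 6 of 38 genes were called. They include Adi1, an enzyme that recycles methionine, at 9.96, 10.9, 11.2, 10.2 and 10.9 RPKM against 18.0, 20.5, 15.2, 21.2 and 17.4 RPKM. Its log2 difference was -0.76 ± 0.08 (SE, limma adjusted p = 0.000456), and -0.02 undefeated. Chosen after their values were seen, Pxdn and Kcnf1 in the same stretch had log2 differences of 0.41 and 0.34 after defeat and 0.04 and -0.01 without it.

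On the X chromosome, 7 of 63 genes between 130 and 140 Mb were called (11.1%, beside 1.91% over all genes tested), all higher. Among undefeated libraries, 6 of the 7 were also called higher. Most belong to the Bex and Tceal family, small neuronal proteins related to transcription elongation factors, a list added after its values were seen. Of its 11 tested members, 6 were called higher (54.5%, beside 1.1% called higher over all genes tested). Bex1 was at 30.8 to 36.3 RPKM against 24.0 to 26.1 RPKM (log2 difference 0.47, limma adjusted p = 0.000152), and Bex2, Bex4, Tceal7, Tceal8 and Tceal9 had log2 differences of 0.29, 0.41, 0.45, 0.23 and 0.17. Bex3 was at -0.13 and not called. Without knockout-label libraries 1 and 2 together, 3 of the 11 were called higher.

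Some lists of neuronal signalling genes held a few calls, to be read beside the share of 1.91% over all genes tested. Among interneuron markers, 1 of 19 was called (5.26%). Cort, the peptide cortistatin of a subset of inhibitory neurons, was at 6.50, 6.20, 6.66, 6.15 and 6.27 RPKM with the knockout label and at 2.70, 2.45, 3.29, 2.63 and 3.46 RPKM in WT. The knockout-label mean was 2.19 times the WT mean with no overlap (log2 difference 1.02 ± 0.08 SE, limma adjusted p = 2.96e-05), and undefeated libraries gave a log2 difference of 1.19 (limma adjusted p = 0.00572). Sst, the related peptide somatostatin, was at 211 to 215 RPKM against 174 to 206 RPKM and was not called (limma adjusted p = 0.0635, and 0.00925 to 0.226 over the alternatives). Without WT library 3, Sst was called (limma adjusted p = 0.0177) and 3 interneuron markers were called higher. In bulk tissue, a difference in the number of cells of a type and a difference in RNA per cell cannot be told apart.

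Of 20 GABA genes, Gabra2 and Gabbr2 were called lower and Gabrd higher (15% called, beside 1.91% over all genes tested), with a list median of 0.06. Gabrd, a subunit of receptors outside synapses, was at 7.43 to 8.65 RPKM against 6.49 to 7.29 RPKM (log2 difference 0.22, limma adjusted p = 0.0326). Gabbr2, a subunit of GABA-B receptors, differed by -0.10 (limma adjusted p = 0.0451). Gabra2 held its call in all 23 alternatives, while Gabrd lost it in 10 and Gabbr2 in 15. Leaving out any 1 of knockout-label libraries 1, 2, 3 and 5 or WT libraries 1, 4 and 5 ended both calls, and WT library 2 or 3 that of Gabbr2 as well. The number of GABA genes called higher was 3 without WT library 2 and 2 without knockout-label library 3.

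Of 51 ion channel genes, 43 had a positive log2 difference and 2 were called, both higher (3.92%, beside 1.91% over all genes tested). Kcna1, a potassium channel of axons, was at 20.2 to 22.1 RPKM against 17.6 to 19.1 RPKM (log2 difference 0.18, limma adjusted p = 0.0151). Cacnb4, a calcium channel subunit, was at 16.3 to 19.8 RPKM against 14.7 to 16.1 RPKM (log2 difference 0.23, limma adjusted p = 0.0478) and lost its call in 14 of 23 alternatives, including each single library left out except knockout-label library 3. The list's median was 0.07, and -0.02 in undefeated libraries.

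Among 35 tested immediate early genes, which neurons switch on upon activity, 1 was called (2.86%, beside 1.91% over all genes tested). Bdnf, a growth factor of neurons, was at 5.56, 5.32, 5.09, 5.67 and 5.66 RPKM against 4.66, 4.76, 5.04, 4.44 and 4.37 RPKM. Its groups did not overlap (log2 difference 0.21 ± 0.04 SE, limma adjusted p = 0.0365), and undefeated libraries gave 0.24 (limma adjusted p = 0.014). The call was lost in 10 of 23 alternatives, including the removal of any 1 of knockout-label libraries 1, 2, 4 and 5 or WT libraries 1, 4 and 5. Fos, Arc and Npas4 had log2 differences of -0.07, -0.12 and -0.01 and were not called. The list's median was -0.04 with 22 of 35 genes negative, and -0.10 in undefeated libraries with 29 negative.

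Calls were made gene by gene, and several lists with a role in stress or at synapses held none. None was called by limma among 23 glucocorticoid response genes, 20 stress-circuit peptides and receptors, 40 glutamate receptor genes, 21 monoamine receptor genes, 28 synaptic vesicle genes, 28 postsynaptic genes, 19 clock genes, 23 endoplasmic reticulum stress genes and 20 cytosolic chaperones. Their medians ranged from -0.058 to 0.065. At an unadjusted limma p below 0.05 these lists held 5, 6, 9, 3, 8, 8, 3, 5 and 5 genes in the same order, where 18.1% of all genes tested passed that level. Crhbp, a binding protein for corticotropin-releasing hormone named after its values were seen, was at 14.3 to 16.4 RPKM against 9.60 to 11.7 RPKM (log2 difference 0.43, limma adjusted p = 0.00278) and was also higher undefeated (log2 difference 0.49, limma adjusted p = 0.0321).

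Of 31 hippocampal subfield markers, 1 was called higher and 1 lower (6.45% called, beside 1.91% over all genes tested). Bok, a BCL2-family protein that marks CA3, was at 33.6, 37.5, 42.4, 37.4 and 38.3 RPKM with the knockout label and at 23.4, 29.1, 27.9, 25.3 and 24.5 RPKM in WT. It did not overlap (log2 difference 0.53 ± 0.07 SE, limma adjusted p = 0.00283), and undefeated libraries gave 0.43 (limma adjusted p = 0.0167). The CA3 markers other than Bok were not called, and the median over the 7 CA3 genes was -0.11. The other called member, Dcn, is a matrix proteoglycan that is also on the list of meningeal fibroblasts.

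**Figure D3:**
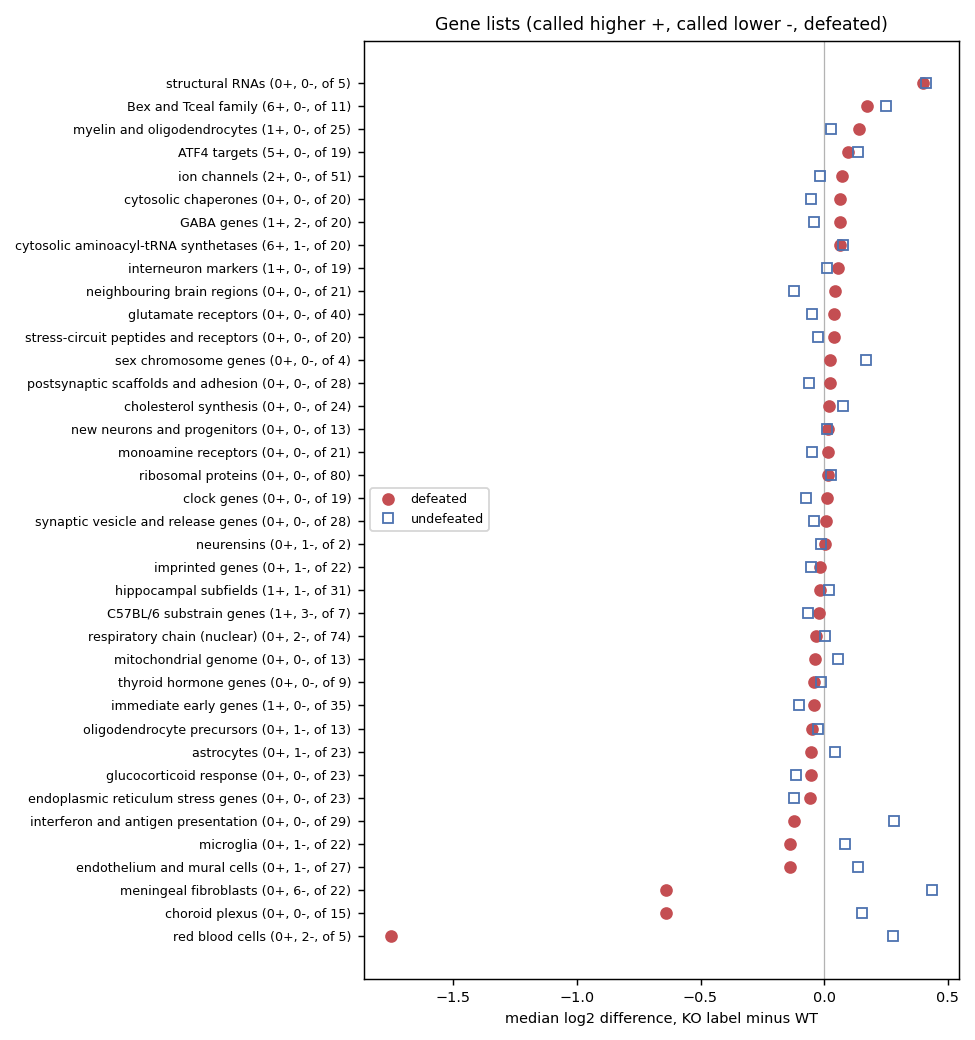
Median log2 difference of each gene list, knockout label minus WT, in defeated (red circles) and undefeated (open blue squares) libraries, with the number called higher and lower after defeat. Most medians lie within 0.15 of 0, and those of red blood cells, choroid plexus and meningeal fibroblasts are the lowest after defeat and positive without it.

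Several markers of tissue at the edge of the hippocampus were lower with the knockout label. Of 22 genes of meningeal fibroblasts, the matrix-making cells of the brain's coverings, 6 were called lower (27.3%) and 21 had a negative log2 difference, with a median of -0.64. Over all genes tested, 0.818% were called lower. The list was summed in each library, giving 94.2, 74.1, 149.7, 121.1 and 134.1 RPKM with the knockout label and 164.1, 143.2, 191.5, 167.8 and 203.1 RPKM in WT. Knockout-label library 3 lay above WT library 2, and the other knockout-label libraries lay below all WT libraries. Every tested member was above 0 in all 10 libraries, and undefeated libraries gave a positive median of 0.44 with none called by limma. The number called after defeat ranged from 2 without knockout-label library 2 to 12 without knockout-label library 3, and was 1 without libraries 1 and 2 together.

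Ogn, a small matrix proteoglycan, was at 3.51, 2.12, 4.64, 4.00 and 3.38 RPKM against 6.85, 5.39, 8.57, 5.51 and 9.43 RPKM. The groups did not overlap (log2 difference -0.93 ± 0.19 SE, limma adjusted p = 0.038), although the call was lost in 13 of 23 alternatives, including knockout-label library 1, 2, 4 or 5 or WT library 1, 3, 4 or 5 left out. Lum, of the same protein family, was at 2.15, 1.5, 2.54, 1.62 and 1.72 RPKM against 3.53, 3.20, 3.15, 3.36 and 4.65 RPKM (log2 difference -0.77 ± 0.13 SE, limma adjusted p = 0.013). Dcn, Cyp1b1, Col1a1 and Pdgfra were the other called members, at log2 differences of -0.40, -0.37, -0.42 and -0.21. Outside the list, Eln, which encodes elastin, was at -0.52. Dcn lost its call without knockout-label library 2, and Cyp1b1 without knockout-label library 1, 2 or 4 or WT library 1, 3, 4 or 5. The part of meningeal tissue in these calls was not tested.

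Choroid plexus genes, which mark the tissue that makes cerebrospinal fluid, were lower in 2 libraries. Ttr, the thyroid hormone carrier that dominates this tissue, was at 715, 481, 3234, 2537 and 3642 RPKM with the knockout label and at 2798, 2928, 3596, 3606 and 3169 RPKM in WT. Knockout-label libraries 1 and 2 stood far below the rest, and the other 3 overlapped WT. Of 15 genes of the list, all had a negative log2 difference, with a median of -0.64, and none was called by limma, nor did any pass an unadjusted p of 0.05. The list's summed level was 653 to 4504 RPKM against 3473 to 4471 RPKM.

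Blood genes were lower as well. Hbb-bs, a beta-globin gene of red cells, was at 52.9, 48.9, 40.1, 42.7 and 81.9 RPKM with the knockout label and at 145, 142, 676, 182 and 148 RPKM in WT. WT library 3 was the highest and the groups did not overlap (log2 difference -1.99 ± 0.40 SE, limma adjusted p = 0.0334). Of 5 tested blood genes, Hbb-bs and its near-identical neighbour Hbb-bt were called, all 5 were lower without overlap, and the median was -1.75. Over all genes tested, 1.91% were called and 5.49% did not overlap. Without WT library 3, which held the highest level, all 5 were called lower, while leaving out knockout-label library 1, 2, 3 or 4 or WT library 1, 4 or 5 ended both calls. Undefeated libraries held 47.9 to 88.9 RPKM of Hbb-bs, and their median for the list was 0.28. How much blood each sample held, and its part in other differences, was not tested.

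**Figure D4:**
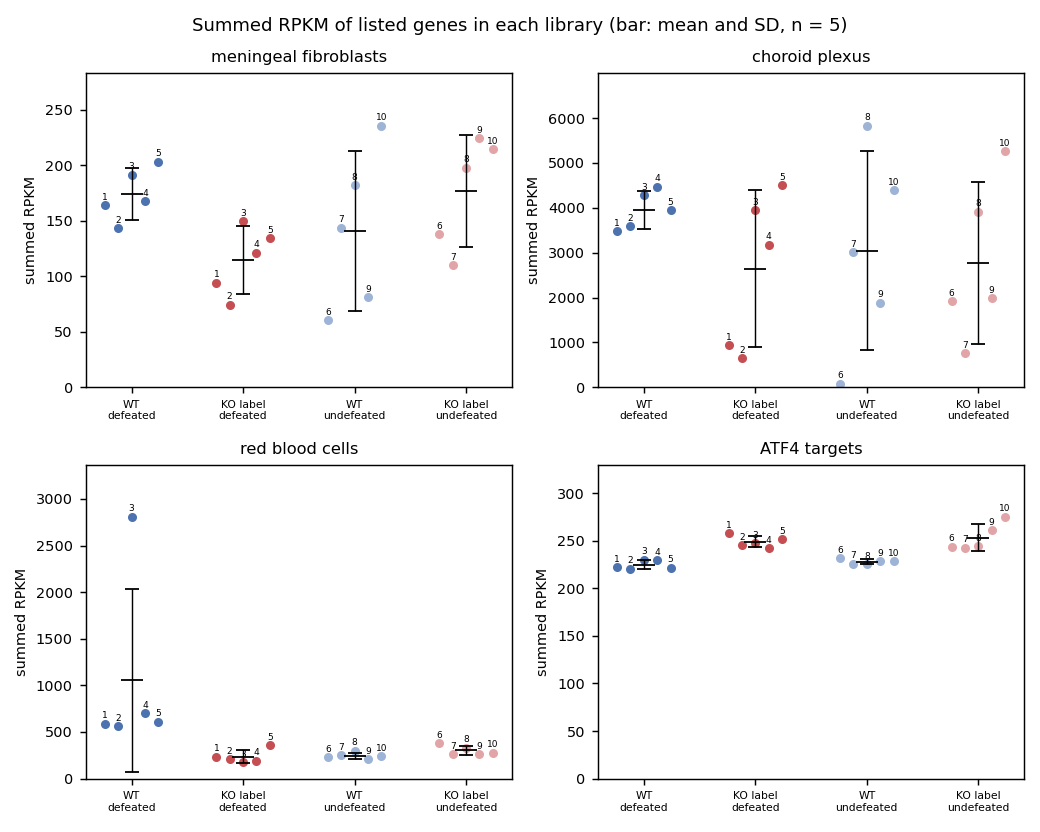
Summed RPKM of the genes of 4 lists in each library, in defeated and undefeated groups, with the mean and SD (n = 5). Knockout-label libraries 1 and 2 hold the lowest choroid plexus and meningeal sums among defeated libraries, WT library 3 holds 2808 RPKM of blood genes, and the ATF4 sums of the labels do not overlap in either condition.

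Markers of the remaining cell types gave 1 call or none per list. In lists with 1 call the share ranged from 3.7% (endothelium and mural cells) to 7.69% (oligodendrocyte precursors), beside 1.91% over all genes tested. Microglia, the resident immune cells, had 1 call among 22 genes (Olfml3, at a log2 difference of -0.18, held in no single removal but that of WT library 1), with 20 negative and a median of -0.14. Endothelium and mural cells had 1 among 27 (Itm2a, at -0.24), with 24 negative and a median of -0.14, and 3 called without knockout-label library 3 or 2 without WT library 4. Astrocytes had 1 among 23 (Ntsr2, a neurotensin receptor, at -0.29), or 2 without WT library 2, and oligodendrocyte precursors had 1 among 13 (Pdgfra). Interferon and antigen presentation genes had none called by limma among 29, with 28 negative and a median of -0.12. At an unadjusted limma p below 0.05 there were 7, where 18.1% of all genes tested passed that level. Undefeated medians were 0.08 in microglia, 0.14 in endothelium and mural cells, 0.04 in astrocytes, 0.28 in interferon genes and -0.03 in oligodendrocyte precursors. There, 2 microglia, 2 astrocyte and 1 interferon genes were called higher, where 0.809% of all genes tested were called higher. Myelin genes had a median of 0.14, with 21 of 25 positive and 1 called. This was Trf, the iron carrier transferrin, at 87.4, 81.5, 87.7, 82.3 and 88.6 RPKM against 67.5, 60.5, 63.5, 65.6 and 72.5 RPKM. The groups did not overlap (log2 difference 0.37 ± 0.05 SE, limma adjusted p = 0.00171), and undefeated libraries gave 0.03.

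Genes of energy metabolism changed little, with 2.7% of the nuclear respiratory chain list called beside 1.91% over all genes tested. Of 74 nuclear genes of the respiratory chain, 50 were negative, the median was -0.04, and Ndufa8 of complex I and Atp5j2 of the ATP synthase were called lower at -0.12 and -0.21. The call of Ndufa8 ended without knockout-label library 1, 2 or 4 or WT library 2, 3, 4 or 5. None of 13 messenger RNAs of the mitochondrial genome, 80 ribosomal protein genes and 24 cholesterol synthesis genes was called by limma. At an unadjusted limma p below 0.05 these lists held 1, 14 and 0 genes, where 18.1% of all genes tested passed that level. The mitochondrial glycine tRNA mt-Tg was at 246, 348, 306, 265 and 260 RPKM with the knockout label and at 105, 102, 111, 96.4 and 104 RPKM in WT. It did not overlap (log2 difference 1.45 ± 0.09 SE, limma adjusted p = 2.8e-06). Undefeated libraries were at 281 to 351 RPKM against 191 to 283 RPKM, so the defeated WT libraries lay below every other group. A tRNA has no long poly(A) tail and is shorter than the 75 bp read, which limits what its RPKM in a poly(A) library measures.

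Ndn, an imprinted gene for a neuronal growth suppressor, was the single call among 22 imprinted genes (4.55%, beside 1.91% over all genes tested). It stood at 60.6, 64.2, 71.9, 71.8 and 60.9 RPKM with the knockout label and at 97.8, 118, 115, 113 and 102 RPKM in WT. The groups did not overlap (log2 difference -0.72 ± 0.07 SE, limma adjusted p = 0.000168). Undefeated knockout-label libraries were at 62.8 to 69.9 RPKM. Undefeated WT libraries ranged from 48.6 to 96.8 RPKM, and the change of the difference with defeat was not called (limma adjusted p = 0.0636).

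A few other genes reached a large difference. Gstm6, a glutathione transferase, was at 3.46 to 5.65 RPKM against 1.62 to 2.83 RPKM (log2 difference 0.86, limma adjusted p = 0.0171) and at 0.08 undefeated. Rec8, a cohesin subunit of meiosis with a mean under 1 RPKM, was at 1.02 to 1.81 RPKM against 0.0345 to 0.26 RPKM (log2 difference 1.52, limma adjusted p = 0.000111). Tmem254b, which has near-identical copies, was at 15.4 to 24.2 RPKM against 11.7 to 14.0 RPKM (log2 difference 0.52, limma adjusted p = 0.0359), with a log2 difference of 1.21 undefeated. Its call ended without knockout-label library 3 or 5 or any 1 WT library.

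The same contrast among undefeated libraries, which share none of the 10 libraries above, called 209 of 18297 genes, 148 higher and 61 lower. Of the 343 genes called after defeat and tested undefeated, 265 (77.3%) had the same sign there, beside 56.9% of the 17982 genes tested in both. The 265 include copies at the chromosome 4 locus that do not count as separate observations. Both contrasts called 63 genes, 58 in the same direction, which is 16.6% of the genes called after defeat and 27.8% of those called undefeated. The undefeated count behind this overlap was 68 without undefeated WT library 9, 101 and 115 without WT library 6 or 7, and 126, 131, 103 and 118 without knockout-label library 6, 7, 8 or 9. The 5 of opposite direction were Pisd, Pisd-ps1, Pisd-ps2, Gm20671 and Olfml3, of which the first 3 are copies of the gene for an enzyme of phospholipid synthesis. Gm20671 overlaps Pisd on chromosome 5, and the libraries did not keep strand, so these 2 may share reads. Pisd-ps2 was at 26.1 to 31.5 RPKM against 36.7 to 55.7 RPKM after defeat and 17.3 to 27.1 RPKM against 10.1 to 16.5 RPKM undefeated.

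The change of the genotype difference with defeat was tested in 20 libraries, and 27 of 18263 genes were called (0.148%), 11 higher (0.0602%) and 16 lower, of which 17 were also called after defeat. Besides Wdfy1, they included Adi1, at a change of -0.74 ± 0.09 (SE, limma adjusted p = 0.000528), and Rec8, at 1.99 ± 0.18 (SE, limma adjusted p = 3.64e-05). No list median is given a test here, and no member of the ATF4 list was called for a change with defeat (0 of 18 by limma). The count of 27 was 244 without undefeated WT library 10, 68 without undefeated WT library 8, 17 without knockout-label defeated library 1 and 16 without undefeated WT library 9. Defeated and undefeated libraries are separate, and the background strain of each group is not in the labels. Defeat and background therefore cannot be told apart in this term.

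**Figure D5:**
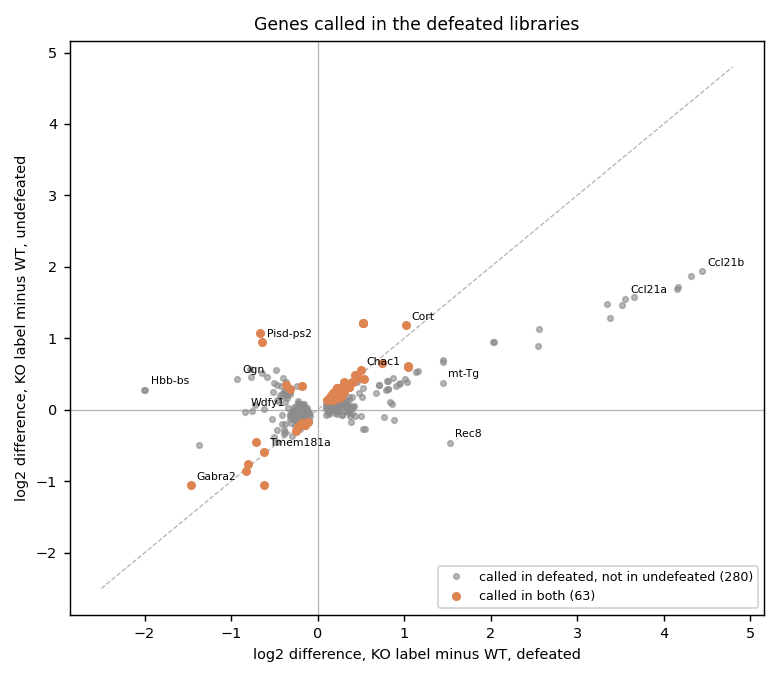
Log2 difference between the genotype labels in defeated (x axis) and undefeated (y axis) libraries for the 343 genes called after defeat and tested in both, with the 63 called in both in orange and equality dashed. Ccl21a and Ccl21b lie below the dashed line, Cort and Tmem181a lie close to it, and Rec8 and Pisd-ps2 change sign.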

How the data were processed

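The authors deposited RPKM values per gene and library in 1 table per genotype, together with mean RPKM per group, log2 fold changes, a likelihood ratio score and p-values, per the file headers. Libraries were poly(A)-selected with a TruSeq V2 kit, which does not keep strand, and sequenced as 75 bp single-end reads, per the labels' protocols. STAR and mm10 are named in the submitters' processing notes, and no version, annotation or read counter is given in the sources used here. The tables list the same 39017 genes and share an identical mean abundance for the 17840 genes the authors tested, so values were set across tables.

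Depth was estimated from the step of 1 read in single-exon genes, where 95.13 to 95.51% of the values in defeated libraries lay within 0.05 of a whole read. Genes with a mean of at least 0.5 RPKM were tested as log2(RPKM + 0.5), which understates changes of low genes, with limma-trend (limma 3.58.1, R 4.3.3), two-sided, with Benjamini-Hochberg adjustment at 0.05. Differences are knockout label minus WT. The 10 defeated libraries, 10 undefeated libraries and their interaction were fitted separately. The test was also tried on simulated data. Python 3.11.15 with pandas 2.3.3 and numpy 2.4.6 was used for description.

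Members and lists were chosen with earlier results of these data known. Named genes were Nrsn2, Nrsn1, the 12 highest and 12 lowest called differences with mean RPKM of at least 1, no overlap and an ordinary symbol, up to 4 members of smallest p of each described list, every called substrain, imprinted, red blood cell or sex chromosome gene, and the 5 genes of smallest interaction p also called after defeat. Other genes and roles, such as Col1a1, Pxdn and members of the lists added later, were named after their values were seen. Lists were described by counts and medians, without a test. Alternatives covered the pseudocount, low-value filter, scaling, trend, weights, block, the 3 libraries of conflicting label and each library left out.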

Additional observations from a re-analysis of the deposited data

Results flagged for a closer look

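Chance flags about 1 in 20 groups of 5 for a library far from the others, and 13 of 188 groups (6.91%) were flagged here. WT library 3 accounted for 4 of them, with 668 RPKM of Hbb-bt, 676 of Hbb-bs, 801 of Hba-a2 and 654 of Hba-a1, while the other defeated WT libraries held at most 187 RPKM of any of these genes. WT library 5 was the highest of its group for Lum (4.65 RPKM) and Ccl21b (0.434 RPKM), WT library 4 for Ntsr2 (52.7 RPKM), and WT library 1 was the lowest for Hopx (30.3 RPKM). With the knockout label, the lowest libraries were library 2 for Bmp4 (0.538 RPKM), library 1 for Cox8a (380 RPKM), library 4 for Stxbp6 (15.9 RPKM) and Entpd4 (13.4 RPKM), and library 5 for Magel2 (0.74 RPKM).

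The genotype difference differed between defeated and undefeated libraries by limma's interaction term at an adjusted p of 0.05 in 9 of the named genes. Defeat and background strain cannot be told apart here. On the log2 scale, defeated minus undefeated, the changes were -0.81 in Wdfy1, -0.74 in Adi1, -1.59 in Pisd-ps2, -1.20 in Tagln, -0.62 in Gm20671, -0.52 in Olfml3, 0.73 in B230217O12Rik, 1.07 in mt-Tg and 1.99 in Rec8.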

How the results depend on the processing

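No named gene called after defeat changed sign under any alternative run. The median log2 difference over all genes, 0.00368, was -0.000413 with median scaling and -0.00112 without knockout-label library 5. Of 48 named genes called after defeat, 20 held their call under all alternatives run. The 349 genes called after defeat became 162 with a replicate block (140 shared), 127 without knockout-label libraries 1 and 2 (110 shared; chosen after seeing the data) and 205 to 478 with each library left out. With the 3 libraries of conflicting label counted as defeated, 311 genes were called, 71.1% of them higher against 57.3%. The 209 called undefeated became 514 with array weights, 45 with a replicate block, 978 with the conflicting libraries as controls, 722 with all 20 libraries fitted together, and 68 to 218 with each library left out. The 27 called for a change with defeat became 41 without the mean-variance trend, 172 with array weights, 1 and 98 with the conflicting libraries as defeated and as controls, and 16 to 244 with each library left out. Of them 11 were higher and 16 lower, against 18 and 17 with no low-value filter and 1 and 0 with the conflicting libraries as defeated. Cause was not tested for any of these. The Nrsn2 difference of 4.41 RPKM ranged from 3.58 to 5.29 RPKM with each library left out and lost its exact p under 0.05 in 6 of those 10. With the replicate block it kept 4.41 RPKM at p = 0.125 (exact sign-flip test of same-numbered pairs). With so few pairs that test could not reach a p under 0.05. Library numbers were not taken to pair the samples, since the labels do not say so and not every pair correlated above 0.1. Same-numbered defeated libraries had correlations of deviations of -0.00373, 0.0973, 0.0272, 0.0377 and 0.008. Undefeated numbers 6 to 10 had 0.213, -0.0787, 0.312, -0.114 and 0.366, and 6, 8 and 10 correlated best with their own number while 7 and 9 did not. The block ended 19 of the 48 named calls. Estimated depth was 37.03 M reads or more in each defeated library. Genes under 0.5 RPKM on average were left untested because of the minimum level set for the test, which was not derived from depth.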
